A study of Mus musculus with 9 samples.

Results

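A set of 8 genes that mark alternatively activated mouse macrophages was described across tumour macrophages from 3 treatments: Retnla, Chil3, Mgl2, Clec10a, Ear2, Il4ra, Egr2 and Pparg. They were the rows of the deposited expression table with these symbols, all 8 of which were present among 18042 genes, and all 8 were among the 13090 genes left by the filter on low counts. The macrophages, CD11b+ F4/80+ by sorting, came from subcutaneous tumours of MC38, a mouse colon carcinoma line, grown in female wild-type C57BL/6 mice aged 6 to 8 weeks at injection of the cells. On day 9 the mice were divided at random into 3 groups, with 3 libraries from each: IN@OMVs and OMVs, each injected into the tumour at 12.5 µg of vesicle protein per mouse (625 µg per kg), and Control, injected with an equal volume of solvent (PBS in the sample descriptions). OMVs is the usual abbreviation of bacterial outer membrane vesicles, and the labels do not spell out IN. Each library is called a biological replicate, but the labels do not say if it holds 1 mouse or a pool, or how long after treatment the tumours were taken.

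In alternative activation, interleukin-4 or interleukin-13 binds a receptor that contains the interleukin-4 receptor alpha chain, encoded by Il4ra, and activates the transcription factor STAT6. In mouse macrophages STAT6 and the factors it induces, among them EGR2 and the nuclear receptor PPAR-gamma, raise a group of effector genes. These encode the secreted proteins RELM-alpha (Retnla) and Ym1 (Chil3, a chitinase-like lectin without enzymatic activity), and the galactose-type lectins MGL2 (Mgl2) and MGL1 (Clec10a) on the cell surface. Ear2 encodes a ribonuclease of the eosinophil-associated family, which monocytes and macrophages can also express.

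The 8 genes did not move as 1 group. In IN@OMVs macrophages the lectin genes Mgl2 and Clec10a and the factor gene Egr2 rose against Control, Chil3 and Ear2 fell, and Retnla, Il4ra and Pparg did not pass the test. The rise of Egr2 did not pass with the replicate number as a block (adjusted p = 0.0744). In OMVs macrophages Chil3 and Retnla fell and none of the 8 rose. With single libraries left out, these 2 falls passed in 3 and 2 of 9 omissions. In IN@OMVs against Control, Clec10a, Ear2 and Egr2 passed in 6, 4 and 3 of 9 omissions, and Mgl2 and Chil3 in all 9. Between the vesicle kinds, Mgl2 and Retnla were higher in IN@OMVs than in OMVs, and Chil3, low in both, did not pass the test.

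The promoters of Retnla, Chil3 and Mgl2 are shown because these 3 genes had the largest changes that passed a test and followed 3 different patterns over the groups. The sequences run from 250 bases before to 50 bases after the start of the gene, are given 5′ to 3′ on the strand of the gene, and were taken from RefSeq on GRCm38.p6. They lie at chr16:48842359-48842658 on the plus strand for Retnla, chr3:106167515-106167814 on the minus strand for Chil3 and chr11:70130107-70130406 on the plus strand for Mgl2. Capitals mark matches to the motifs named after the sequences.
Retnla: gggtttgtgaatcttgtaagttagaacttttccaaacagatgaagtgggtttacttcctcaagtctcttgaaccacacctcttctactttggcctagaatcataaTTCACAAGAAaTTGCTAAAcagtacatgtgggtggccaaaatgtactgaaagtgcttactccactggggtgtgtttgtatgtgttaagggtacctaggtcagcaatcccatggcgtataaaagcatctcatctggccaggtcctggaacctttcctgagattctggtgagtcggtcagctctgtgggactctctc
Chil3: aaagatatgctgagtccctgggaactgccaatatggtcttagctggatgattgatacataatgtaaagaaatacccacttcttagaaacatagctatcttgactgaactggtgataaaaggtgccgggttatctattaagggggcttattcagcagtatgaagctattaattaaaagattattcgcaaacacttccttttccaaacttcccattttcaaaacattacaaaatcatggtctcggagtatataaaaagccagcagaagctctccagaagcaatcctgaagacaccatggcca
Mgl2: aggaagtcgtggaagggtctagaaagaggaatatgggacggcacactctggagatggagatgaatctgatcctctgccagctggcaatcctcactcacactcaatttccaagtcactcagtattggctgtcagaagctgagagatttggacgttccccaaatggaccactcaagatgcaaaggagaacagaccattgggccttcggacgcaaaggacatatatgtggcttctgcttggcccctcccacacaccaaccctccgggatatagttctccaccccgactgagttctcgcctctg

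Both strands were searched for TTC and GAA with 4 bases between them (the STAT6 spacing), TTGCNNAA (a core bound by C/EBP factors), GCGNGGGCG (EGR) and AGGTCA repeated after 1 base (bound by PPAR-gamma with RXR). The Retnla promoter held the STAT6 letters as TTCACAAGAA, starting 145 bases before the gene, and the C/EBP letters as TTGCTAAA, starting 134 bases before it. The promoters of Chil3 and Mgl2 held none of the 4 motifs. The matches did not overlap. Among 27025 mouse promoters of the same length, 6.99% held the STAT6 letters, 10.8% the C/EBP letters, 5.55% the EGR letters and 0.044% the direct repeat. A promoter was listed for 7 of the 8 genes. In those of Ear2 and of 1 of the Pparg starts the C/EBP letters were the one motif found, and the Il4ra and Egr2 promoters held none. Such a match describes the letters in this window and shows neither binding nor its absence.

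Libraries held between 16813200 and 17288300 expected counts (estimated reads per gene), so depth was near equal. Levels are given as CPM, expected counts scaled to library size, as mean ± SD over 3 libraries, log2 changes are given ± SE, and a gene is said to rise or fall where the adjusted p of edgeR's quasi-likelihood test was under 0.05. Macrophage markers were detected in all libraries, summing to between 17327 and 24568 CPM over 12 genes, and none of the 12 passed in any comparison (4, 0 and 2 had an unadjusted p under 0.05 for IN@OMVs against Control, OMVs against Control and IN@OMVs against OMVs). Other transcripts varied between libraries of 1 group. T cell markers summed to 350, 299 and 340 CPM in the libraries numbered 1 of IN@OMVs, OMVs and Control and to between 104 and 195 CPM in the other 6 libraries. Fibroblast markers summed to 1576 CPM in IN@OMVs 1 and to between 3619 and 6122 CPM in the other 8 libraries.

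**Figure D1:**
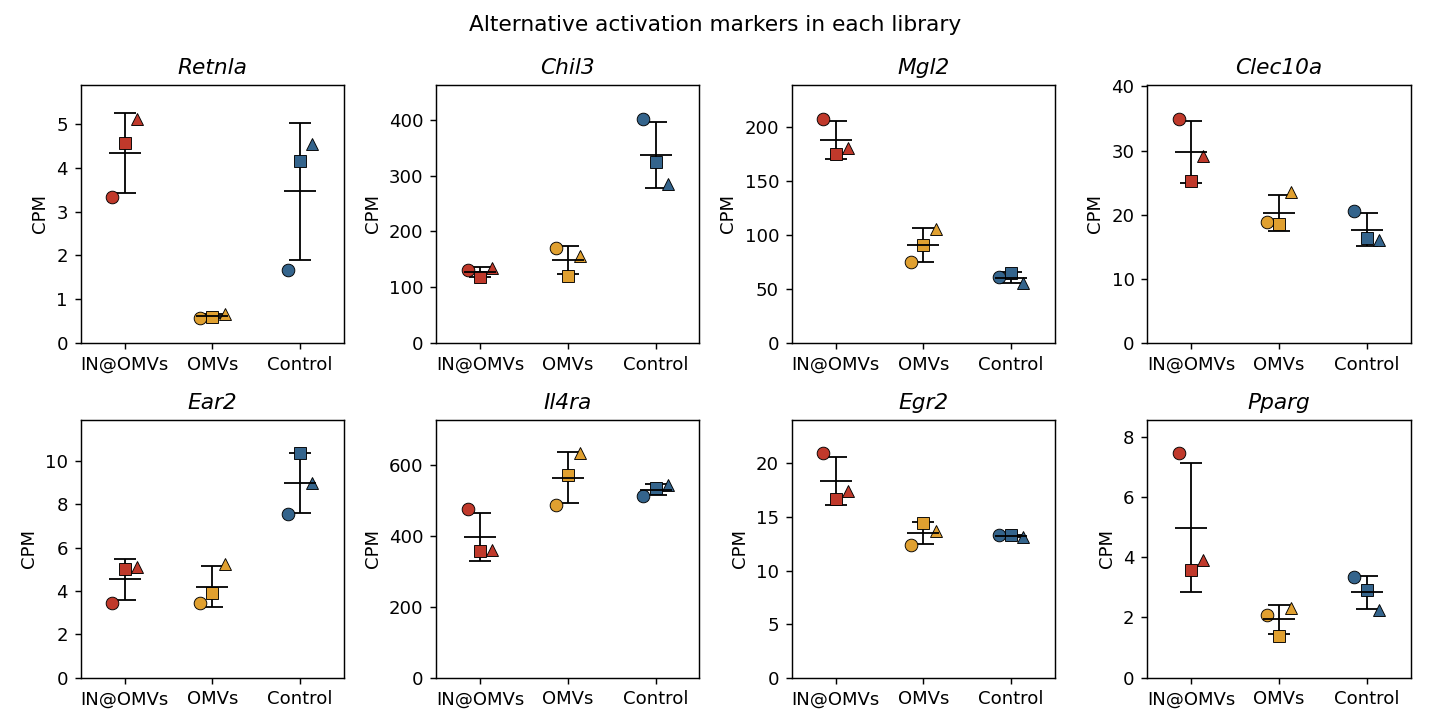
Level of each of the 8 genes in CPM (vertical axes, linear and starting at 0) in IN@OMVs, OMVs and Control macrophages; circles, squares and triangles are libraries 1, 2 and 3, and bars give the mean ± SD of 3 libraries. Mgl2 was highest in IN@OMVs (175 to 208 CPM), Chil3 was highest in Control (285 to 402 CPM), and Retnla was lowest in OMVs (0.574 to 0.657 CPM).

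Retnla separated the vesicle kinds from each other. It had 3.33, 4.56 and 5.12 CPM in IN@OMVs libraries 1 to 3, 0.574, 0.583 and 0.657 CPM in OMVs, and 1.67, 4.15 and 4.55 CPM in Control. All 3 OMVs libraries lay below all 6 others, while IN@OMVs and Control overlapped. These are low levels: the IN@OMVs libraries held 54, 80 and 88 expected counts of it, the OMVs libraries 10, 10 and 11, and the Control libraries 28, 71 and 79. Retnla was higher in IN@OMVs than in OMVs by 2.83 ± 0.40 on the log2 scale (adjusted p = 0.00634), a 7.11-fold difference, and this call held without each library in turn. In OMVs against Control it fell to 0.176 of the Control level (adjusted p = 0.0403), a log2 change of -2.50 ± 0.40 with a 95% interval from -3.41 to -1.60. Against Control, IN@OMVs differed by 0.33 ± 0.34 (adjusted p = 0.668), with a 95% interval from -0.43 to 1.09, and by -0.00 (adjusted p = 0.998) without Control 1. The fall in OMVs did not pass without IN@OMVs 2 (adjusted p = 0.0819), IN@OMVs 3 (0.0868), OMVs 1 (0.146), OMVs 2 (0.254), OMVs 3 (0.176), Control 2 (0.224) or Control 3 (0.200), or in limma-voom (0.164), with log2 changes between -2.83 and -2.25 over the omissions.

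Chil3 fell with both kinds of vesicle. It had 131, 118 and 134 CPM in IN@OMVs, 170, 121 and 156 CPM in OMVs, and 402, 325 and 285 CPM in Control. Every vesicle library lay below every Control library, and the 2 vesicle groups overlapped. The log2 change was -1.40 ± 0.15 in IN@OMVs against Control (128 ± 8.59 against 337 ± 59.7 CPM, adjusted p = 0.000869), which passed without each library in turn. In OMVs against Control it was -1.18 ± 0.15 (149 ± 25.3 against 337 ± 59.7 CPM, adjusted p = 0.0234). That call was lost without IN@OMVs 3 (adjusted p = 0.0572), OMVs 2 (0.102), OMVs 3 (0.0906), Control 1 (0.0592), Control 2 (0.149) or Control 3 (0.129). IN@OMVs differed from OMVs by -0.22 ± 0.15 (adjusted p = 0.581), with a 95% interval from -0.56 to 0.12.

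Chil3 is also a marker of classical monocytes, the circulating precursors of many tumour macrophages, and other markers of these cells fell in the same libraries. The 11 classical monocyte markers other than Chil3 summed to between 1784 and 2120 CPM in IN@OMVs, 2473 and 2855 CPM in OMVs and 3116 and 3300 CPM in Control, with no marker at 0 in any library. In IN@OMVs against Control 6 of the 11 fell and none rose (median log2 change -0.63), and in OMVs against Control 1 fell (median -0.31, and none with the replicate block). In IN@OMVs against OMVs, where Chil3 did not pass, 3 of the 11 were lower and none higher (median -0.32). The marker that fell in OMVs was Hp, the haptoglobin gene (182 ± 16.6 CPM in OMVs, against 292 ± 15.2 CPM in Control, adjusted p = 0.0245, and 0.0532 with the block). F13a1, described below, was among the 6 that fell in IN@OMVs against Control. Ly6c2 and Ccr2, named after their values were seen, were among the 5 that did not pass there, and they passed in no other comparison. The 12 neutrophil markers summed to between 226 and 279 CPM in IN@OMVs, 761 and 1003 CPM in OMVs and 1019 and 1471 CPM in Control. Of 11 tested, 10 fell in IN@OMVs against Control (11 with the block), and none passed in OMVs against Control (1 with the block, 5 with an unadjusted p under 0.05). In IN@OMVs against OMVs 10 were lower. Of the 12, Camp and Ngp were at 0 in 1 library and Elane in 3. The part of either cell type in the Chil3 result was not tested, and in sorted bulk RNA fewer cells of a type and less RNA per cell cannot be told apart.

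Mgl2 was the member with the largest rise in IN@OMVs against Control. It had 208, 175 and 180 CPM in IN@OMVs, 74.7, 90.9 and 106 CPM in OMVs, and 60.9, 65.2 and 55.8 CPM in Control. The 3 groups did not overlap at any point, in the order IN@OMVs, OMVs, Control. Mgl2 rose in IN@OMVs against Control by 1.63 ± 0.13 (adjusted p = 0.000168), 3.10-fold, and against OMVs by 1.05 ± 0.13 (adjusted p = 0.00291), 2.08-fold, and both calls held without each library in turn. In OMVs against Control the difference of 0.58 ± 0.13 did not pass (adjusted p = 0.135). It passed without IN@OMVs 1 (0.57, adjusted p = 0.0338), without the 3 libraries numbered 1 (0.70, adjusted p = 0.00251) and in DESeq2 (0.58, adjusted p = 0.0039).

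Clec10a, the gene of the other lectin, also on chromosome 11, followed Mgl2 at a lower level and with smaller differences. It had 35.0, 25.3 and 29.1 CPM in IN@OMVs, 18.8, 18.6 and 23.5 CPM in OMVs, and 20.6, 16.4 and 16.0 CPM in Control. IN@OMVs lay above both other groups, which overlapped with each other. Clec10a rose in IN@OMVs against Control by 0.75 ± 0.15 (adjusted p = 0.0208), not past the threshold without IN@OMVs 3 (adjusted p = 0.0601), Control 2 (0.0954) or Control 3 (0.102). Against OMVs the difference was 0.55 ± 0.15 (adjusted p = 0.110, and 0.0338 in DESeq2). OMVs differed from Control by 0.20 ± 0.15 (adjusted p = 0.853), with a 95% interval from -0.15 to 0.55.

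Part of the reads of the lectin genes was shared. Expected counts of Mgl2 and of Clec10a were fractional in all 9 libraries, which marks reads that the counting divided between sequences. In the longest coding transcripts of the GENCODE M21 annotation, 261 of 1586 stretches of 50 bases in Mgl2 (16.5%) occur in at least 1 of 11 other genes, 242 of them in Clec10a. In Clec10a those 242 are 10.6% of its stretches, and all occur in Mgl2 and in no other gene. The values of both lectin genes are uncertain to the extent that reads were divided between genes.

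Both lectins also mark type 2 conventional dendritic cells, and none of the other markers of these cells passed as higher in any comparison. The 10 other markers summed to between 1083 and 1426 CPM in IN@OMVs, 1122 and 1367 CPM in OMVs and 1105 and 1162 CPM in Control, ranges that overlapped, with no marker at 0 in any library. In IN@OMVs against Control none rose and 1 fell (3 with an unadjusted p under 0.05), in the other comparisons none passed (3 with an unadjusted p under 0.05 in each), and with the block none passed against Control. Median log2 changes of the 10 markers were 0.11 for IN@OMVs against Control, -0.10 for OMVs against Control and 0.08 between the vesicle kinds. Cd209a, a lectin marker of these cells named after its values were seen, passed in no comparison. Its mean level was low, at 1.69 CPM with IN@OMVs, 0.588 CPM with OMVs and 1.37 CPM for Control, which limits the precision of its changes. It differed by 0.31 in IN@OMVs against Control (adjusted p = 0.708) and by -1.21 in OMVs against Control (adjusted p = 0.356). Between the vesicle kinds, where Mgl2 was higher in IN@OMVs, Cd209a differed by 1.52 ± 0.39 (adjusted p = 0.0847). Markers of type 1 dendritic cells did rise: 4 of 8 in IN@OMVs against Control (3 with the block), with sums between 381 and 531 CPM in IN@OMVs, 317 and 376 CPM in OMVs and 329 and 352 CPM in Control. The part of either type of dendritic cell in the lectin results was not tested.

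**Figure D2:**
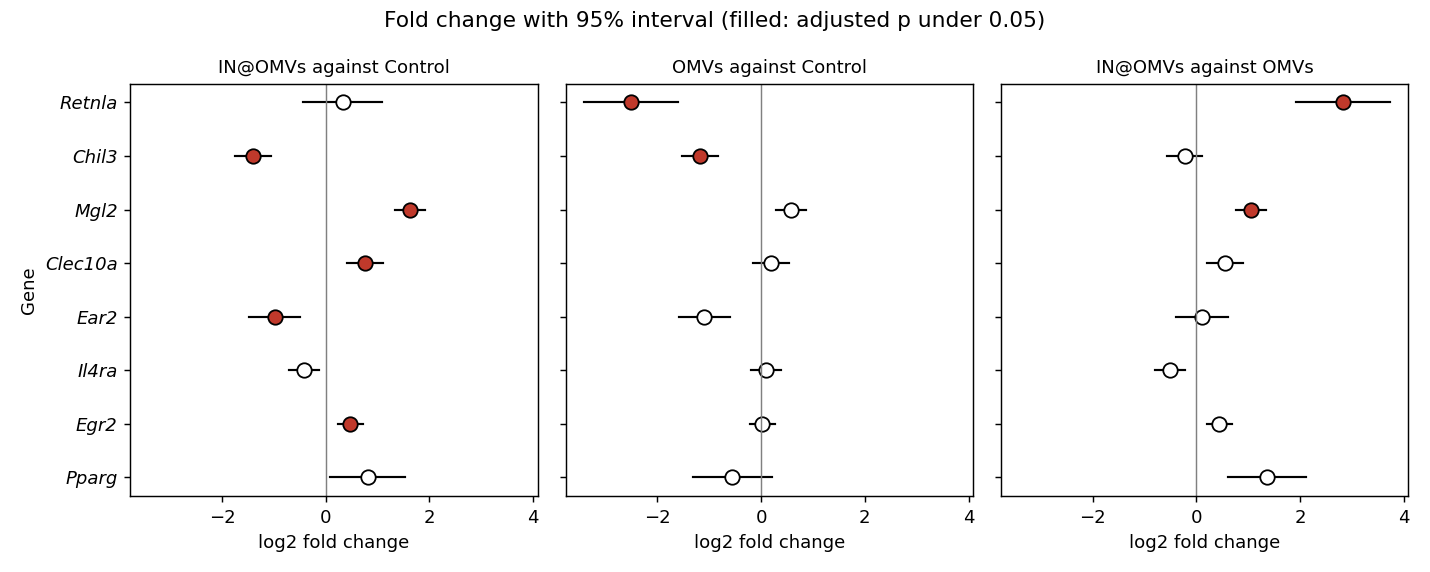
Log2 fold change (horizontal axes) of the 8 genes in IN@OMVs against Control, OMVs against Control and IN@OMVs against OMVs; points are edgeR estimates, lines are 95% intervals and filled points had an adjusted p under 0.05. Mgl2 stood at 1.63, 0.58 and 1.05, Chil3 at -1.40, -1.18 and -0.22, and Retnla at 0.33, -2.50 and 2.83 in these comparisons.

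Ear2 was lower with both kinds of vesicle. It had 3.45, 5.02 and 5.12 CPM in IN@OMVs, 3.45, 3.91 and 5.26 CPM in OMVs, and 7.57, 10.3 and 8.99 CPM in Control. Each vesicle library lay below each Control library. Ear2 fell in IN@OMVs against Control by 0.98 ± 0.22 on the log2 scale (adjusted p = 0.0298), and it did not pass without IN@OMVs 2 (adjusted p = 0.0582), IN@OMVs 3 (0.0647), OMVs 2 (0.0540), Control 2 (0.127) or Control 3 (0.100), or with only IN@OMVs and Control in the fit (0.0553). In OMVs against Control the difference was -1.09 ± 0.22 (adjusted p = 0.102). It passed without IN@OMVs 1 (0.0154), without the 3 libraries numbered 1 (0.0109), with only OMVs and Control in the fit (0.0478) and in DESeq2 (0.00196). IN@OMVs differed from OMVs by 0.11 ± 0.22 (adjusted p = 0.892), with a 95% interval from -0.39 to 0.61.

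Ear2 is expressed by nonclassical monocytes as well as eosinophils. The 11 other nonclassical monocyte markers summed to between 454 and 681 CPM in IN@OMVs, 526 and 652 CPM in OMVs and 686 and 793 CPM in Control. Of these 11, 5 fell in IN@OMVs against Control (median -0.33) and 1 in OMVs against Control (median -0.31), none rose, and none was at 0 in any library. The 1 was Nr4a1, the nuclear receptor on which these monocytes depend (21.9 ± 2.51 CPM in IN@OMVs, 56.9 ± 6.64 CPM in OMVs, 114 ± 25.2 CPM in Control). In IN@OMVs against OMVs, where Ear2 did not pass, 3 of the 11 were lower (median -0.26). Eosinophil markers were near 0: the 8 in the table summed to between 3.33 and 3.54 CPM in IN@OMVs, 2.97 and 4.48 CPM in OMVs and 4.21 and 4.89 CPM in Control, with Prg3 at 0 in all 9 libraries, Il5ra and Ear1 at 0 in 7, and Prg2 and Ear6 at 0 in 6. The part of monocytes in the Ear2 result was not tested.

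The secreted markers had close relatives in the table. Chil4, the nearest relative of Chil3, had 8 expected counts over all 9 libraries and Chil3 had whole counts in every library, although 29.4% of the 50-base stretches of its transcript occur in another gene. For Ear2 that share was 41.5%, its counts were fractional in 1 library, and Ear1, Ear6 and Ear10 had 3, 3 and 2.01 expected counts over the 9 libraries. The transcripts of Retnla, Il4ra, Egr2 and Pparg held no such shared stretch, yet the counts of Egr2 were fractional in all 9 libraries, from a source that was not identified. Of the 12 relatives of the secreted markers present, Chil4 and these Ear genes included, 2 passed the filter on low counts, and both fell in IN@OMVs against Control and against OMVs. Retnlg, a resistin-like gene of neutrophils, had 1.42, 1.03 and 1.28 CPM in IN@OMVs, against 58.4, 34.2 and 40.2 CPM in Control (log2 change -5.15 ± 0.32, adjusted p = 6.12e-05). Chil1, which encodes another chitinase-like protein, had 3.14, 2.22 and 2.15 CPM in IN@OMVs, against 24.2, 18.1 and 16.1 CPM in Control (-2.96 ± 0.28, adjusted p = 0.000532). Neither passed in OMVs against Control, though Retnlg did with the replicate block (adjusted p = 0.0420).

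Il4ra, the receptor chain through which both cytokines signal, had 477, 358 and 360 CPM in IN@OMVs, 489, 573 and 634 CPM in OMVs, and 515, 535 and 546 CPM in Control. All IN@OMVs libraries lay below those of both other groups, but the differences of -0.42 ± 0.13 against Control (adjusted p = 0.0978) and -0.51 ± 0.13 against OMVs (adjusted p = 0.0805) did not pass. Without IN@OMVs 1 both passed, at -0.57 (adjusted p = 0.00345) and -0.66 (adjusted p = 0.00292), as they did in DESeq2 (0.0233 and 0.00492). Both also passed with scaling by library totals (0.0300 and 0.0232) and without the 3 libraries numbered 1 (0.000343 and 9.47e-05). At a minimum mean of 5 CPM the difference against OMVs passed (0.0483). OMVs differed from Control by 0.09 ± 0.13 (adjusted p = 0.970), with a 95% interval from -0.20 to 0.38.

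Egr2, which encodes a transcription factor of the late interleukin-4 response in mouse macrophages, had 20.9, 16.7 and 17.4 CPM in IN@OMVs, 12.4, 14.4 and 13.7 CPM in OMVs, and 13.3, 13.3 and 13.1 CPM in Control. IN@OMVs lay above the other 2 groups, and Control varied little (13.2 ± 0.0841 CPM). The rise against Control was 0.47 ± 0.11 (adjusted p = 0.0312), 1.39-fold, which the block did not leave past the threshold. Nor did it pass without IN@OMVs 3 (0.0665), OMVs 2 (0.0517), OMVs 3 (0.0570), Control 1 (0.101), Control 2 (0.117) or Control 3 (0.127). The same held without the 3 libraries numbered 1 (0.0504) and with only these 2 groups in the fit (0.0754). Against OMVs the difference was 0.44 ± 0.11 (adjusted p = 0.0654). It passed in DESeq2 (0.0223), with scaling by library totals (0.0342) and at a minimum mean of 5 CPM (0.0491). OMVs differed from Control by 0.03 ± 0.11 (adjusted p = 1.00).

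Pparg had the lowest level per length of the 8 genes in every group and varied most within IN@OMVs. It had 7.45, 3.59 and 3.90 CPM in IN@OMVs, 2.07, 1.40 and 2.33 CPM in OMVs, and 3.34, 2.92 and 2.25 CPM in Control. All IN@OMVs libraries lay above the others, with IN@OMVs 1 apart from its group, and OMVs and Control overlapped. No comparison passed. The differences were 0.81 ± 0.32 in IN@OMVs against Control (adjusted p = 0.199, with a log2 change of 0.40 without IN@OMVs 1) and -0.55 ± 0.34 in OMVs against Control (adjusted p = 0.766). IN@OMVs differed from OMVs by 1.36 ± 0.33 (adjusted p = 0.0703, but 0.0101 in DESeq2 and 0.0495 with scaling by library totals).

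The members were chosen with earlier results of these data known, so the counts that follow describe them and do not test them as a set. Set against the whole table, 5 of the 8 members passed in IN@OMVs against Control (3 higher, 2 lower), where 6.55% of all genes tested did (3.32% higher and 3.24% lower). In OMVs against Control 2 passed, both lower, where 0.42% of genes did (0.298% higher and 0.122% lower). In IN@OMVs against OMVs 2 passed, both higher, where 2.85% of genes did (1.1% higher and 1.75% lower). Groups did not overlap for 7, 4 and 6 members in these comparisons, against 25.9%, 19.8% and 17.6% of all genes. With the replicate block 4, 2 and 2 members passed, where 5.14%, 0.153% and 2.34% of genes did. At an unadjusted p under 0.05 the members numbered 7, 4 and 6, beside 19.8%, 8.44% and 14.4% of genes. The median log2 change of the 8 was 0.40, -0.26 and 0.50, beside medians of -0.00, -0.00 and -0.00 over all genes. Since Control is shared, the changes of both vesicle groups against it are not independent of each other. Without OMVs 2, OMVs 3, Control 2 or Control 3, edgeR called 0 genes in OMVs against Control (734, 942, 787 and 803 with an unadjusted p under 0.05), so no member could pass there. DESeq2 and limma-voom called 207 and 36 genes on all libraries, and edgeR 1 gene without IN@OMVs 3, 5 without Control 1 and 266 without IN@OMVs 1.

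Per kilobase of transcript, the order of the members changed between groups. In IN@OMVs Mgl2 came first at a mean of 115 CPM per kilobase, before Chil3 (82.9) and Il4ra (75.8). In OMVs the order was Il4ra (108), Chil3 (96.8) and Mgl2 (55.4), and in Control it was Chil3 (219), Il4ra (101) and Mgl2 (37.1). The other 5 members had means per kilobase of 2.34 to 12.8 CPM in IN@OMVs, 0.909 to 8.70 CPM in OMVs and 1.33 to 12.5 CPM in Control. These values divide by the longest coding transcript in GENCODE M21 and depend on that choice.

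In the receptor pathway around Il4ra, the genes that passed were the feedback inhibitors Socs1 and Socs3. Of 17 tested genes of interleukin-4 and interleukin-13 signalling other than Il4ra, 1 rose and 1 fell in IN@OMVs against Control and against OMVs, and 1 rose in OMVs against Control (none with the block). Socs1, an inhibitor of Janus kinases, had 36.2, 32.8 and 27.6 CPM in IN@OMVs, 17.7, 19.2 and 18.6 CPM in OMVs, and 11.4, 11.2 and 10.2 CPM in Control. It was the gene that rose each time, by 1.56 ± 0.11 in IN@OMVs against Control (adjusted p = 0.000100) and by 0.76 ± 0.11 in OMVs against Control (adjusted p = 0.0320, and 0.0603 with the block). Socs3, a second inhibitor of the family, fell in IN@OMVs against Control (234 ± 31.5 against 448 ± 25.0 CPM, -0.93 ± 0.10, adjusted p = 0.00103). Stat6 differed by -0.09 in IN@OMVs against Control (adjusted p = 0.583) and by -0.00 in OMVs against Control (adjusted p = 1.00). Il4 had 1 expected count and Il13 had 7 over all 9 libraries, and both missed the filter on low counts. Without that filter neither passed in IN@OMVs against Control (adjusted p = 0.657 for Il4 and 0.324 for Il13).

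Other genes that interleukin-4 and STAT6 raise in macrophages went in both directions. Of 27 tested, 6 rose and 3 fell in IN@OMVs against Control (median 0.20), 2 rose in OMVs against Control (median -0.08, and none with the block), and 9 rose and 2 fell in IN@OMVs against OMVs (median 0.14). Pdcd1lg2, the gene of the checkpoint ligand PD-L2, had 35.1, 32.7 and 41.3 CPM in IN@OMVs, 16.1, 20.4 and 19.7 CPM in OMVs, and 11.3, 8.54 and 7.49 CPM in Control. It rose by 2.00 ± 0.16 in IN@OMVs against Control (adjusted p = 0.000234) and by 1.04 ± 0.17 in OMVs against Control (adjusted p = 0.0400, and 0.127 with the block). The same order of the groups was seen for Flt1, a receptor of vascular endothelial growth factor (18.6 ± 1.57 CPM in IN@OMVs, 10.5 ± 0.462 in OMVs, 6.97 ± 0.216 in Control), which passed in all 3 comparisons (0.135 in OMVs against Control with the block). Mmp12, the macrophage elastase gene, rose by 1.76 ± 0.16 in IN@OMVs against Control (adjusted p = 0.000367) and by 0.87 ± 0.15 against OMVs (adjusted p = 0.0189). F13a1, which encodes a coagulation factor subunit and is also a monocyte marker, fell by 1.35 ± 0.13 in IN@OMVs against Control (adjusted p = 0.000605). Arg1, the arginase gene, and Mrc1, the mannose receptor gene, were named after their values were seen: they differed by 0.21 and 0.20 in IN@OMVs against Control (adjusted p = 0.432 and 0.575) and passed in no comparison.

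**Figure D3:**
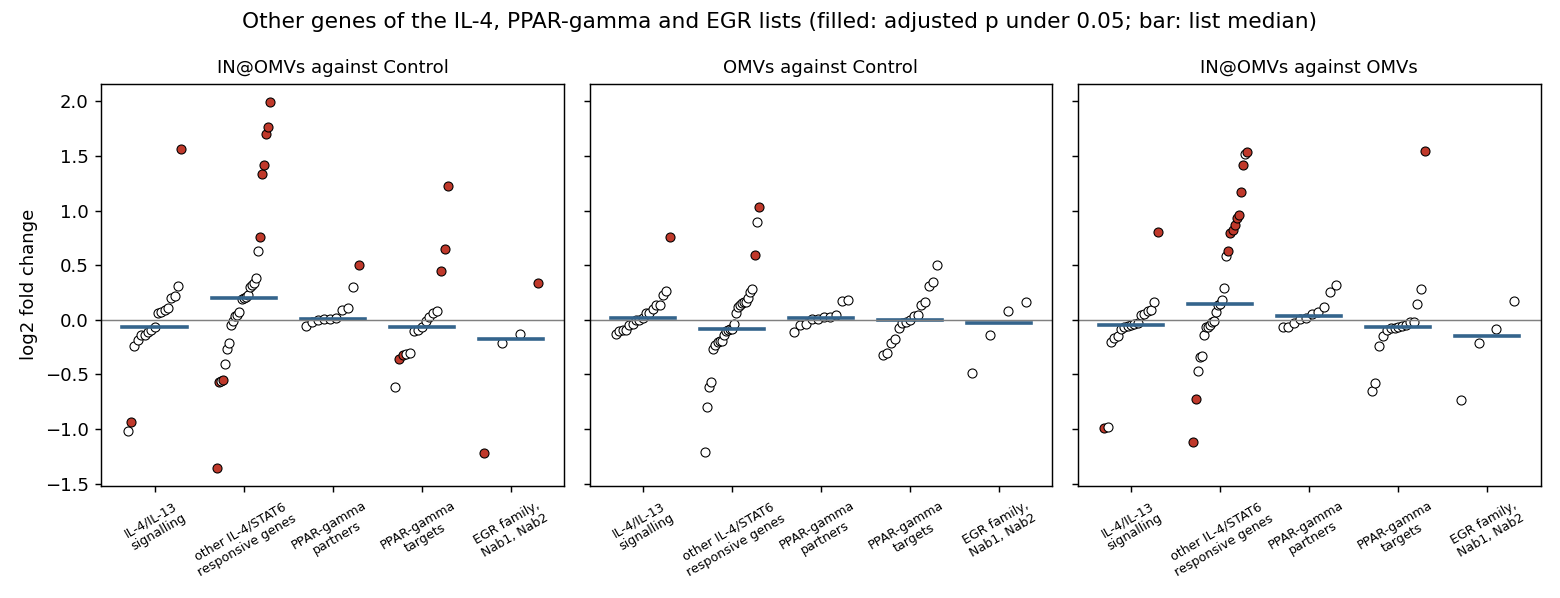
Log2 fold change (vertical axis) of the tested genes of 5 lists other than the 8 members, in IN@OMVs against Control, OMVs against Control and IN@OMVs against OMVs; each point is a gene, filled points had an adjusted p under 0.05 and blue bars are list medians. Called genes lay on both sides of 0 in IN@OMVs against Control, where the other interleukin-4 and STAT6 responsive genes had 6 higher and 3 lower.

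Partners and targets of PPAR-gamma were mixed as well. Of 10 tested partners and coregulators, Ppargc1b, a coactivator, rose in IN@OMVs against Control (17.1 ± 1.33 against 12.1 ± 0.82 CPM, 0.50 ± 0.12, adjusted p = 0.0421, and 0.0665 with the block). Rxra, the partner receptor, differed by 0.09 (adjusted p = 0.542), and no partner passed in OMVs against Control or in IN@OMVs against OMVs (1 and 2 with an unadjusted p under 0.05). Of 15 tested target genes, 3 rose and 2 fell in IN@OMVs against Control (median -0.07), none passed in OMVs against Control (3 with an unadjusted p under 0.05), and 1 rose in IN@OMVs against OMVs. Cd36, a fatty acid and lipoprotein receptor, had 90.5, 87.9 and 93.0 CPM in IN@OMVs, 26.1, 28.1 and 38.8 CPM in OMVs, and 28.8, 40.3 and 46.9 CPM in Control. IN@OMVs lay above the others, by 1.23 ± 0.18 against Control (adjusted p = 0.00482) and 1.54 ± 0.19 against OMVs (adjusted p = 0.00299). Abcg1, a cholesterol exporter, rose by 0.45 ± 0.08 and Fabp5, a fatty acid binding protein gene, by 0.65 ± 0.14 in IN@OMVs against Control (adjusted p = 0.0121 and 0.0248, the second 0.0513 with the block). Cpt1a, which carries fatty acids into mitochondrial oxidation, fell by 0.36 ± 0.08 in IN@OMVs against Control (adjusted p = 0.0270).

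Among the relatives and corepressors of Egr2, Egr1, an immediate early factor, had 52.8, 64.6 and 67.1 CPM in IN@OMVs, against 175, 133 and 120 CPM in Control. It fell by 1.22 ± 0.18 (adjusted p = 0.00482), opposite in direction to Egr2. Nab2, a corepressor of EGR factors, rose by 0.33 ± 0.07 in IN@OMVs against Control (adjusted p = 0.0234, and 0.0524 with the block). No gene of these 4 tested passed in OMVs against Control or in IN@OMVs against OMVs (2 and 3 with an unadjusted p under 0.05).

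**Figure D4:**
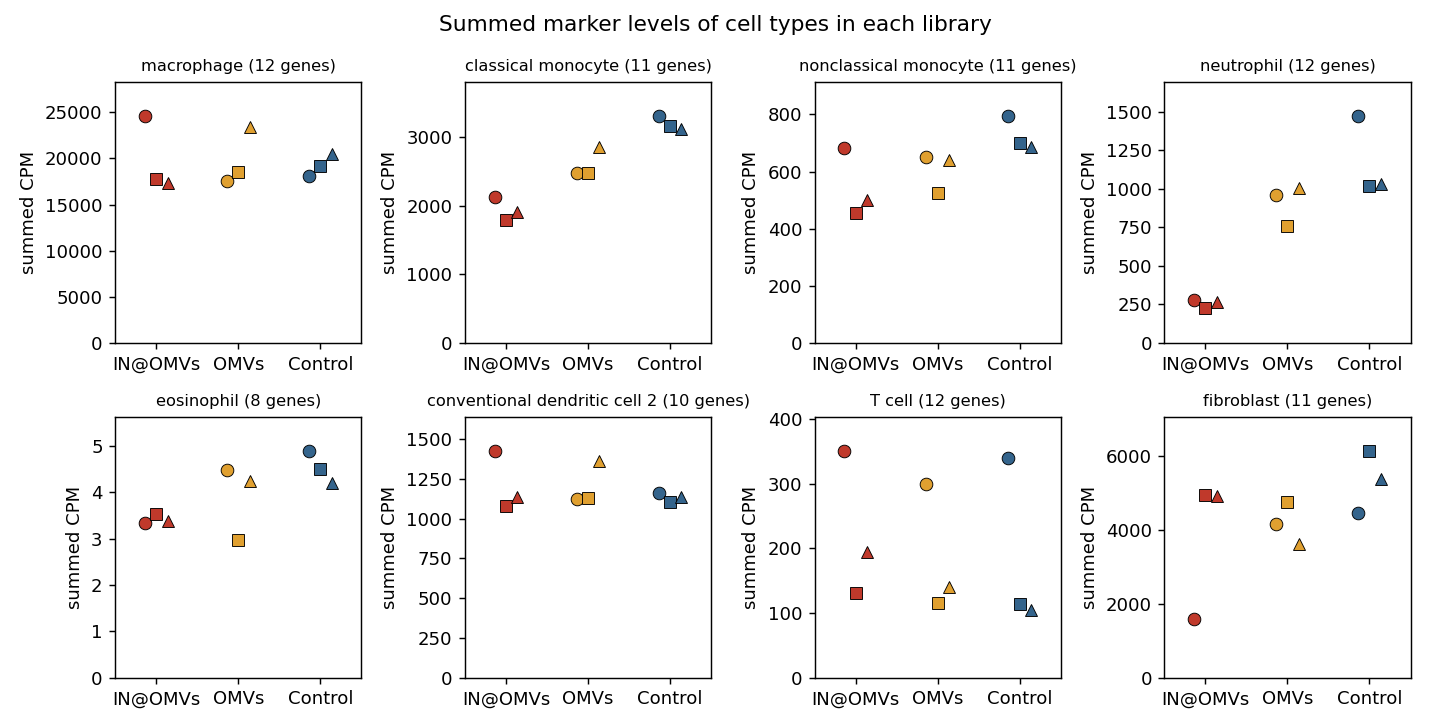
Summed CPM of marker genes of 8 cell types (vertical axes, linear and starting at 0, the 8 genes described here left out of the sums) in each library of IN@OMVs, OMVs and Control; circles, squares and triangles are libraries 1, 2 and 3. Classical monocyte markers stood between 1784 and 2120 CPM in IN@OMVs, 2473 and 2855 CPM in OMVs and 3116 and 3300 CPM in Control, and type 2 dendritic cell markers overlapped between the groups.

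Patterns across the 9 libraries were compared by Pearson's r of log2 CPM, over 10513 candidate genes with a mean of at least 5 CPM, as a description of these libraries and their 3 groups. Closest to Mgl2 were Trim21 (r = 0.991), Sectm1a (0.986) and Gbp3 (0.985). For Clec10a they were H2-T24 (0.984), Samhd1 (0.984) and Pfkp (0.983), and for Egr2 Keap1 (0.978), Eif2ak2 (0.976) and Mkks (0.975). Closest to Chil3 were Lrrfip1 (0.967), Prkag1 (0.963) and Slc25a20 (0.959), to Ear2 Cd163 (0.938), Mtmr9 (0.935) and Col14a1 (0.928), and to Retnla Tmbim1 (0.957), Cgnl1 (0.948) and Zfp28 (0.941). The nearest genes were Tax1bp1 (0.988), Gpr84 (0.983) and N4bp1 (0.981) for Il4ra and Map3k9 (0.981), Ifi27l2a (0.978) and Arhgap15 (0.976) for Pparg. Among the members, Mgl2, Clec10a and Egr2 had r between 0.897 and 0.922 with each other over the 9 libraries, and between 0.583 and 0.691 once the group means were taken out. Chil3 and Ear2 had 0.814 over the 9 libraries and -0.263 without the group means, and Retnla and Pparg had 0.620 and -0.519, so the sign of both turned. Retnla and Il4ra had -0.596 and -0.0867. Other pairs turned sign too: Il4ra went from -0.552 to 0.885 with Egr2 and from -0.630 to 0.819 with Mgl2. With Clec10a it went from -0.518 to 0.632, and with Pparg from -0.503 to 0.573. Chil3 and Clec10a had -0.599 and 0.601, while Clec10a and Pparg kept their sign at 0.777 and 0.831.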

How the data were processed

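RNA of 9 libraries of sorted tumour macrophages had been extracted with TRIzol and prepared with oligo-dT beads, per the labels' protocols. The deposited table holds expected counts, estimated reads per gene and library that are not normalized. That unit was read from the values, of which 88.8% to 89.6% per library are whole numbers. BWA, Bowtie2 and RSEM (no versions) and the builds mm9 and hg19 (no roles) are listed in the submitters' processing notes, so no gene coordinates are taken from the table.

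After rounding, expected counts were tested in R 4.3.3 with edgeR 4.0.16: filterByExpr (13090 of 18042 genes kept), TMM scaling, a quasi-likelihood fit with 1 mean per group over all 9 libraries (6 residual degrees of freedom), and Benjamini-Hochberg adjustment over all tested genes within each of 3 comparisons. Since the labels do not say that replicates came from separate mice, p-values measure the spread between these libraries. Alternatives used DESeq2 1.42.0, limma 3.58.1 and the settings given in the closing section.

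The members and gene lists were chosen with earlier results of these data known. All 8 members are named, with up to 4 passing genes of each list by smallest p, Stat6, Rxra, and the 3 genes most like each member; of cell type markers, those at 0 or on which a result turns. Any other gene named was chosen after its values were seen.

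Whether replicate numbers pair libraries was checked by correlating each library's deviations from its group mean. For libraries 1, 2 and 3 it was 0.45, 0.29 and 0.13 in IN@OMVs against Control and 0.51, 0.35 and 0.11 in OMVs against Control. Unlike numbers reached similar values: 0.36 for IN@OMVs 2 with Control 3 and 0.31 for OMVs 2 with Control 3. Deviations within a group cancel, so these values depend on each other. In the comparisons with Control they set the libraries numbered 1 apart and do not show that libraries 2 and 3 are pairs. The block is an alternative, and its value is printed for the comparisons with Control where it changes a call. In IN@OMVs against OMVs the correlations of libraries 1, 2 and 3 were 0.10, 0.47 and -0.34. Unlike numbers reached 0.39 (IN@OMVs 1 with OMVs 3) and 0.38 (IN@OMVs 3 with OMVs 2), and pairing was not settled there either. Counting precision is limited for genes near 1 CPM, such as Retnla and Pparg.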

Additional observations from a re-analysis of the deposited data

How the results depend on the processing

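Mgl2 and Chil3 in IN@OMVs against Control and Mgl2 and Retnla in IN@OMVs against OMVs kept direction and passed under every alternative in which they were tested (19, 19, 19 and 18; Retnla and Pparg are left out by a minimum mean of 5 CPM). Over the omissions of single libraries the number of genes called lay between 393 and 1635 in IN@OMVs against Control (858 with all), 0 and 266 in OMVs against Control (55) and 180 and 786 in IN@OMVs against OMVs (373), and the number of members between 2 and 6 (5), 0 and 4 (2) and 2 and 3 (2). With only the 2 groups compared in the fit, 519, 115 and 195 genes were called in these comparisons, and 3 members in the first. Without the 3 libraries numbered 1 the counts were 1475, 313 and 844 genes, and 4 members in OMVs against Control. DESeq2 called 207 genes and 4 members in OMVs against Control and 646 genes and 6 members in IN@OMVs against OMVs. In OMVs against Control limma-voom called 36 genes and 1 member, and a minimum mean of 5 CPM left 1 member. The replicate block called 20 genes in OMVs against Control and 673 in IN@OMVs against Control, with 2 and 4 members. In IN@OMVs against OMVs it called 306 genes and 2 members. Scaling by library totals called 5 members in IN@OMVs against OMVs. Over the omissions 4 log2 changes, none of them called, changed sign: Retnla in IN@OMVs against Control (-0.00352 without Control 1, to 0.57), Egr2 in OMVs against Control (-0.0242 without OMVs 2, to 0.0857), Il4ra in OMVs against Control (-0.00333 without OMVs 3, to 0.18) and Ear2 in IN@OMVs against OMVs (-0.0143 without OMVs 1, to 0.30). The cause of these changes was not tested. Among the alternatives, 32 values no longer passed and 22 newly passed. Arms of 2 libraries and fold changes of Retnla, at 10 to 88 expected counts, limit what these calls can show.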

Other observations

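A relative of Ear2 too low for the filter on low counts was higher in IN@OMVs than in OMVs, as Retnla was. Unlike Retnla, it was near 0 in Control, and it was named after its values were seen. Rnase2a, listed in RefSeq with the synonym Ear11, was low throughout: the IN@OMVs libraries held 10, 21 and 20 expected counts of it, the OMVs libraries 1, 2 and 2, and the Control libraries 0, 1 and 0. With no filter on low counts (17220 genes tested), edgeR gave a log2 change of 3.26 ± 0.56 in IN@OMVs against OMVs (adjusted p = 0.0154). Against Control the adjusted p was 0.00237 for IN@OMVs and 0.838 for OMVs, and no fold is given because Control held 1 count in all. Rnase2b, another relative, had between 0 and 6 expected counts in every library and was not higher in IN@OMVs than in OMVs.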
